A study of Mus musculus with 12 samples.

Results

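The Snail, Twist, Zeb and Prrx genes encode transcription factors that drive or mark the epithelial-mesenchymal transition (EMT). The 8 genes followed here, Snai1, Snai2, Twist1, Twist2, Zeb1, Zeb2, Prrx1 and Prrx2, were chosen by name, and each matched 1 of the 37583 gene identifiers in the count tables (ENSMUSG00000042821, ENSMUSG00000022676, ENSMUSG00000035799, ENSMUSG00000007805, ENSMUSG00000024238, ENSMUSG00000026872, ENSMUSG00000026586 and ENSMUSG00000039476 in that order). RNA-seq libraries were made from mouse cells of the mixed strain 129SV/Jae/C57BL6J at stages of reprogramming to pluripotency, with 2 libraries in each of 6 groups. MEF were embryonic fibroblasts in MEF medium. The other groups but iPSC were reprogramming cultures, grown in ES medium to which dox and AA were added, then stained and sorted for cells with the surface carbohydrate SSEA1. On day 3, d3_Eff cells were CD73+ and Sca1-, and d3_Ineff cells were CD73- and Sca1+. On day 6, d6_Eff cells were EpCAM+ and Sca1-, and d6_Ineff cells were EpCAM- and Sca1+. The last group, iPSC, held induced pluripotent stem cells in ES medium. Medium and dox therefore changed together with the group when any population was set against MEF, and their part cannot be told apart from that of the cell state. The labels name MEF and iPSC as "3/4" without explaining it, and they give no transgene, clone or number of animals.

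Snail and Zeb proteins are zinc finger repressors that bind E-boxes, short motifs with the core CAGGTG, in the promoters of epithelial genes such as Cdh1, which encodes E-cadherin. Twist proteins are basic helix-loop-helix factors that pair with E proteins, and Prrx proteins are homeodomain factors of limb and craniofacial mesenchyme. Fibroblasts express these genes, and cells on the way to pluripotency pass through the opposite change, the mesenchymal-epithelial transition.

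The libraries held 9284060 to 22763548 reads in genes. MEF replicate 2 was the shallowest and had 47.15% of its uniquely placed reads outside genes, d6_Eff replicate 2 had 24.15%, and the other 10 libraries had 5.10 to 11.7%. Replicate libraries of MEF had the lowest correlation (r = 0.950, Pearson on log2 CPM), with 0.983 to 0.990 for the remaining pairs. The fibroblast label of MEF matched its markers: the summed level of 9 fibroblast genes (Thy1, Pdgfra, Pdgfrb, Col1a1, Col1a2, Dcn, Lum, Fap and S100a4) was 10332 to 37169 CPM in MEF, 194 to 240 CPM in d3_Eff, 662 to 781 CPM in d3_Ineff, 88.0 to 166 CPM in d6_Eff, 946 to 1037 CPM in d6_Ineff and 8.17 to 10.7 CPM in iPSC. Of 12 pluripotency genes, all rose in iPSC against MEF (52.7% of all genes were called in either direction), where their summed level was 9579 to 10058 CPM in iPSC and 10.5 to 21.5 CPM in MEF. In bulk samples of this kind, fewer cells that express a gene and less RNA per cell cannot be told apart, and this holds for every level below.

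Of the 8 genes, 7 passed the filter on low counts, and each of these 7 held at least 17 counts in every day 3 library. The exception was Zeb1, a Zeb family repressor, which was listed at 0 counts in all 12 libraries, MEF included. At this depth 3 counts over a group would stand for 0.0667 to 0.113 CPM. The same listing held for 3439 of 20182 protein-coding genes (17.0%). Fibroblasts are known to express Zeb1, so the value is given only as a listing at 0, and the part played by the annotation or the counting was not tested. Gm10125, an overlapping gene on the opposite strand that shares 198 bp of exon with Zeb1, had 8 counts over all libraries.

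The promoters of 3 of the genes and of 3 epithelial genes are shown first because Snail and Zeb proteins are known to bind E-boxes of this core. Each is the RefSeq window of GRCm38.p6 from 250 bases before to 50 bases after the annotated start, written 5′ to 3′ along the gene, with capitals for CAGGTG or its reverse complement CACCTG. Snai1 lies at chr2:167537945-167538244 (plus strand), Twist1 at chr12:33957421-33957720 (plus), Prrx1 at chr1:163313601-163313900 (minus), Epcam at chr17:87635729-87636028 (plus), Crb3 at chr17:57061951-57062250 (plus) and Ap1m2 at chr9:21312284-21312583 (minus).
Snai1: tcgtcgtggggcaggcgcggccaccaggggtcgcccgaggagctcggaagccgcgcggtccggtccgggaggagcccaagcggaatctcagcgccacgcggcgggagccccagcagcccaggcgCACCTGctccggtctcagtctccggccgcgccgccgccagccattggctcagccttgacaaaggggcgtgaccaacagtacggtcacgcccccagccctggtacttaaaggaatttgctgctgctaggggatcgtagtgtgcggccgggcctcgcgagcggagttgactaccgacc
Twist1: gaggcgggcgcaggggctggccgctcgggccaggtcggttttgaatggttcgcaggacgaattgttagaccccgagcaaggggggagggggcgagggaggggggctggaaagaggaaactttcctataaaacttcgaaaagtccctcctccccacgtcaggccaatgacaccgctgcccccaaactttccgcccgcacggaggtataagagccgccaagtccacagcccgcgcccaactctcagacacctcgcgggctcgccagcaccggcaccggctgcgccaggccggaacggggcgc
Prrx1: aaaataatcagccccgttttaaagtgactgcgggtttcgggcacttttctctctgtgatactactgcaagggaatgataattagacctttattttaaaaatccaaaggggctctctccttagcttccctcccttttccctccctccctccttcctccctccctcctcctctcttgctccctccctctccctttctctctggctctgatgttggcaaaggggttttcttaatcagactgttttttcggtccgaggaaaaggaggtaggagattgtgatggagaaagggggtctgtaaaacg
Epcam: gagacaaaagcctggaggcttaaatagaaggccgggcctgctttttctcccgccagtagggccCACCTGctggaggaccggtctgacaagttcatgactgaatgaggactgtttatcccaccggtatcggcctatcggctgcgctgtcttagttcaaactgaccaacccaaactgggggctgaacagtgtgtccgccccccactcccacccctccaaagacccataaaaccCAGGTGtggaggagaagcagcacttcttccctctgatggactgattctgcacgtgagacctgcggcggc
Crb3: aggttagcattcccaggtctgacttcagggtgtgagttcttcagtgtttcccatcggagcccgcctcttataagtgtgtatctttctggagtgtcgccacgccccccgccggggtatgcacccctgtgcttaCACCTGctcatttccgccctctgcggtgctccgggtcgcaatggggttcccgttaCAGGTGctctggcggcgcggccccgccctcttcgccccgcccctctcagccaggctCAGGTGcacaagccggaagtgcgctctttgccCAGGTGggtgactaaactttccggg
Ap1m2: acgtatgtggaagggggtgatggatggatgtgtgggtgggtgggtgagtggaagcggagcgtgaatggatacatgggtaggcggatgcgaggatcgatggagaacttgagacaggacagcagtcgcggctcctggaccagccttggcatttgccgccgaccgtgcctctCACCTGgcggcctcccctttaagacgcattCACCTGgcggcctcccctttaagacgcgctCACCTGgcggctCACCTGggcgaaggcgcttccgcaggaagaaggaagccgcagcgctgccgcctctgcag

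The Snai1 window held 1 CAGGTG match, 126 bases before the start. No match lay in the windows of Twist1, Twist2, Prrx1 or Prrx2, or in any of the 4 windows of Zeb2. The promoters of Snai2, Zeb1 and Cdh1 are not shown. Over all 32851 windows, 20.2% held the motif on either strand. Of 40 epithelial genes listed as targets of these factors, 24 had a window and 19 of these (79.2%) held the motif, against 22.6% of all genes with a window. Epcam, an adhesion molecule, held 2 matches, at 187 and 19 bases before the start. Crb3, an apical polarity protein, and Ap1m2, a subunit of an epithelial sorting adaptor, held 4 each, and these 3 epithelial genes were picked for display after their matches and levels were seen. Of 34 mesenchymal genes, 20 had a window and 2 of these (10%) held it. The wider motif CANNTG, which contains CAGGTG, was in 72.3% of all windows. These matches are letters in a window. The epithelial list was made of genes known for control by Snail and Zeb proteins, so its share is no independent evidence, and binding was not measured.

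**Figure D1:**
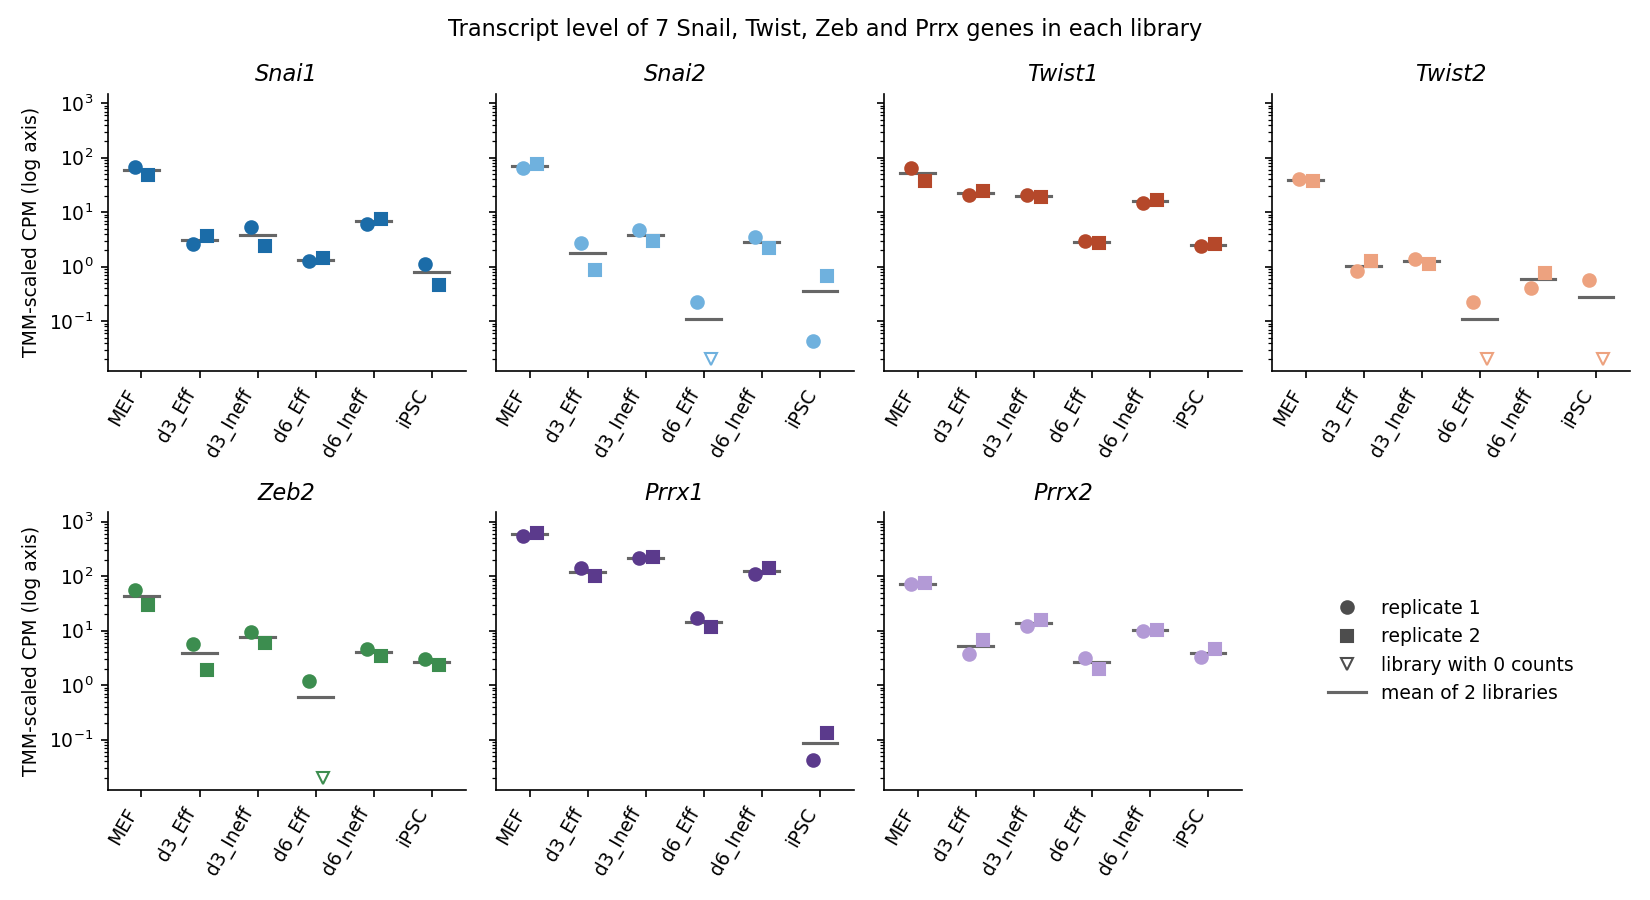
Level of each gene in TMM-scaled CPM (log axis) in every library, by group, with circles for replicate 1, squares for replicate 2, open triangles for libraries with 0 counts and a line at the mean of 2 libraries. Both MEF libraries lie above every other library for all 7 genes, and the d6_Eff libraries lie below the d6_Ineff libraries for all 7. Of these 7, 5 were called lower in d6_Eff than in d6_Ineff. The share of all genes separated in this way was not counted.

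The Snail genes were high in MEF and low in every other group. Snai1, a repressor of E-cadherin induced early in EMT, had 68.5 and 48.0 CPM in MEF, 2.56 and 3.69 CPM in d3_Eff, 5.34 and 2.35 CPM in d3_Ineff, 1.29 and 1.41 CPM in d6_Eff, 6.14 and 7.62 CPM in d6_Ineff, and 1.12 and 0.461 CPM in iPSC. The day 3 groups overlapped, and both d6_Ineff libraries lay above both d6_Eff libraries. In order of mean level d6_Ineff came next after MEF, and among neighbours in that order only MEF and d6_Ineff differed (adjusted p = 0.000319, edgeR quasi-likelihood test).

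Snai2 (Slug), the Snail family repressor best known from neural crest and wound edges, had 64.8 and 75.7 CPM in MEF, 2.69 and 0.884 CPM in d3_Eff, 4.68 and 2.99 CPM in d3_Ineff, 0.223 and 0 CPM in d6_Eff, 3.48 and 2.23 CPM in d6_Ineff, and 0.0430 and 0.659 CPM in iPSC. The d6_Eff values stood for 5 and 0 counts and the iPSC values for 1 and 10 counts, so the order of d6_Eff and iPSC was not resolved (adjusted p = 0.516, edgeR). Neighbours that differed were MEF and d3_Ineff (adjusted p = 0.000796), and d3_Eff and iPSC (adjusted p = 0.0376, where 20.5% of all genes were called lower in iPSC).

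Twist1 kept more of its MEF level on day 3 than Twist2. Twist1, a mesoderm and neural crest factor, had 65.0 and 38.0 CPM in MEF, 20.6 and 24.7 CPM in d3_Eff, 20.99 and 19.3 CPM in d3_Ineff, 2.98 and 2.70 CPM in d6_Eff, 15.01 and 16.9 CPM in d6_Ineff, and 2.36 and 2.57 CPM in iPSC. It kept 44.0% of its MEF mean in d3_Eff and 39.2% in d3_Ineff, the largest share of the 7 genes in both groups. The groups formed steps: MEF lay above both day 3 groups and d6_Ineff, and these lay above d6_Eff and iPSC. Neighbours differed between MEF and d3_Eff (adjusted p = 0.00522) and between d6_Ineff and d6_Eff (adjusted p = 0.000394, edgeR).

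Twist2 (Dermo1), a dermal and mesenchymal relative of Twist1, had 40.3 and 37.1 CPM in MEF, 0.824 and 1.25 CPM in d3_Eff, 1.40 and 1.13 CPM in d3_Ineff, 0.223 and 0 CPM in d6_Eff, 0.406 and 0.758 CPM in d6_Ineff, and 0.559 and 0 CPM in iPSC. Only MEF stood apart from its neighbour in the order (adjusted p = 0.000557 against d3_Ineff, edgeR). By day 3 Twist2 was at 2.67% of its MEF mean in d3_Eff and 3.27% in d3_Ineff. Of its exons in GENCODE M21, 46.5% overlap Gm29100 on the opposite strand. Gm29100 has no row in the count tables, so its reads in the shared exons may have been counted for Twist2.

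Zeb2 (Sip1), a partner of Smad proteins that represses E-cadherin, had 54.8 and 29.7 CPM in MEF, 5.77 and 1.92 CPM in d3_Eff, 9.58 and 5.97 CPM in d3_Ineff, 1.20 and 0 CPM in d6_Eff, 4.52 and 3.47 CPM in d6_Ineff, and 3.01 and 2.37 CPM in iPSC. The d6_Eff libraries held 27 and 0 counts, although the second held 16255091 reads in genes. Both iPSC libraries lay above both d6_Eff libraries, but the difference did not pass the test (log2 fold change 2.06 ± 0.88 SE, adjusted p = 0.103, edgeR). It passed with DESeq2 (adjusted p = 0.0419) and with the replicate number as a block in edgeR (adjusted p = 0.0304). Without d6_Eff replicate 1, which left only the library with 0 counts, the log2 fold change was 8.74. Without MEF replicate 2 it was 2.09. In MEF and in d3_Eff replicate 1 of Zeb2 lay well above replicate 2. Zeb2os, an antisense gene that shares 653 bp with Zeb2, had 35 counts over all libraries.

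The Prrx genes included the most abundant of the 8 in counts. Prrx1, a homeodomain factor of limb bud and stromal mesenchyme, had 544 and 630 CPM in MEF, 139 and 102 CPM in d3_Eff, 211 and 220 CPM in d3_Ineff, 16.9 and 11.5 CPM in d6_Eff, 111 and 138 CPM in d6_Ineff, and 0.0430 and 0.132 CPM in iPSC. The iPSC values stood for 1 and 2 counts in libraries of 22577091 and 14911103 reads in genes. From counts and library sizes the MEF level was 7269 times the iPSC level (95% interval for counting error 2487 to 35252), and the d6_Eff level was 187 times the iPSC level (63.6 to 908). Neighbours in the order differed between MEF and d3_Ineff (adjusted p = 0.000975), d3_Eff and d6_Eff (adjusted p = 5.58e-05), and d6_Eff and iPSC (adjusted p = 7.99e-07, edgeR).

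Prrx2, the close relative of Prrx1, had 71.1 and 73.6 CPM in MEF, 3.69 and 6.76 CPM in d3_Eff, 12.1 and 15.4 CPM in d3_Ineff, 3.21 and 2.00 CPM in d6_Eff, 10.0 and 10.1 CPM in d6_Ineff, and 3.27 and 4.55 CPM in iPSC. On both days the Ineff libraries lay above the Eff libraries without overlap. Unlike Prrx1, it was still measured at 76 and 69 counts in the iPSC libraries. Among neighbours in the order only MEF and d3_Ineff differed (adjusted p = 0.000293, edgeR).

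All 7 tested genes fell in each of the 5 comparisons against MEF. The fold changes on the log2 scale ran from -1.19 ± 0.27 (SE, Twist1) to -5.27 ± 0.72 (Snai2) in d3_Eff, and from -1.36 ± 0.27 (Twist1) to -4.93 ± 0.75 (Twist2) in d3_Ineff. On day 6 they ran from -4.18 ± 0.31 (Twist1) to -9.07 ± 0.95 (Snai2) in d6_Eff, and from -1.70 ± 0.27 (Twist1) to -6.01 ± 0.81 (Twist2) in d6_Ineff. In iPSC they ran from -3.97 ± 0.81 (Zeb2) to -12.75 ± 0.44 (Prrx1, adjusted p = 1.55e-08, edgeR). Among all 16240 genes tested, 18.6% were called lower in d3_Eff, 15% in d3_Ineff, 21.7% in d6_Eff, 15.2% in d6_Ineff and 26.7% in iPSC. The count of 7 of 7 stood above these shares each time. The genes were chosen with earlier results of these data known, and fibroblasts are known to express them. The excess over the background is therefore no independent evidence. The 5 comparisons share the MEF libraries.

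Zeb2 had the least secure of these calls. In d3_Ineff against MEF its adjusted p was 0.0292, and it became 0.0652 without MEF replicate 1, 0.0995 without d3_Ineff replicate 1 and 0.178 without d3_Ineff replicate 2. In d3_Eff it became 0.0610 without d3_Eff replicate 2, and in d6_Ineff 0.0516 and 0.0673 without either library of that group. Twist1 on day 3 missed the threshold in fits of 2 groups alone (adjusted p = 0.0540 in d3_Eff and 0.0579 in d3_Ineff against MEF, edgeR).

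**Figure D2:**
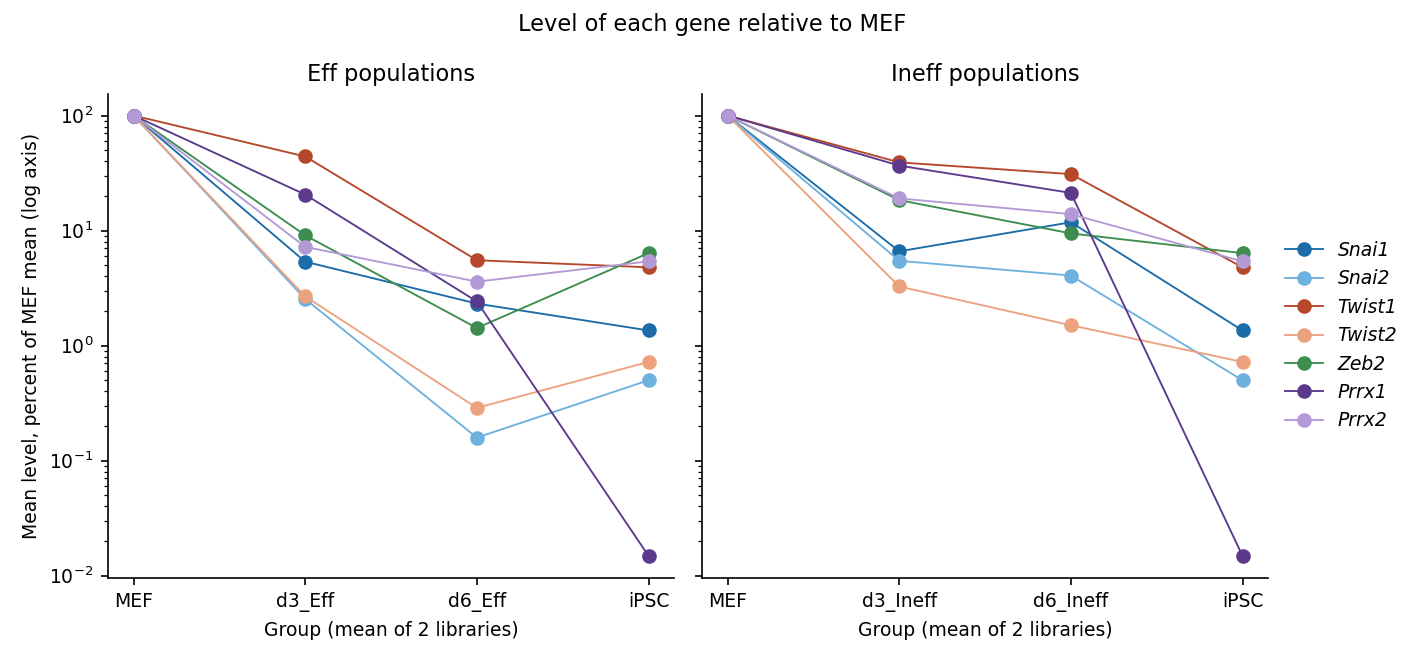
Mean level of each gene as a percent of its MEF mean (log axis) along the Eff populations on the left and the Ineff populations on the right, each ending at iPSC. On day 3 Twist1 and Prrx1 keep 20.6 to 44.0% and the other genes 2.54 to 19.0%; on day 6 the Eff group lies at 0.159 to 5.52% and the Ineff group at 1.502 to 31.0%.

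Between the day 3 populations none of the 7 genes passed the test, where 0.4% of all genes were called. At an unadjusted p under 0.05 there were 2, and DESeq2 called 2, Prrx1 and Prrx2, both lower in d3_Eff. Over all genes DESeq2 called 431 of 14036 in this comparison. The share of all genes at an unadjusted p under 0.05 was not counted. Prrx1 averaged 121 ± 26.5 CPM in d3_Eff and 215 ± 7.03 CPM in d3_Ineff (SD, n = 2 each), a log2 fold change of -0.84 ± 0.24 (SE, adjusted p = 0.221, edgeR). Prrx2 averaged 5.22 ± 2.17 CPM in d3_Eff and 13.8 ± 2.35 CPM in d3_Ineff, with a log2 fold change of -1.40 ± 0.33 (adjusted p = 0.120). Without MEF replicate 1 or 2 the log2 fold changes were -0.84 and -0.87 for Prrx1, and -1.41 and -1.44 for Prrx2. MEF enters this contrast through the shared estimate of the spread and the scaling of the libraries. Snai1, Twist1 and Twist2 overlapped between the populations, with log2 fold changes of -0.30 ± 0.44, 0.17 ± 0.27 and -0.30 ± 0.73. Snai2 (-1.08 ± 0.66) and Zeb2 (-1.01 ± 0.74) were lower in both d3_Eff libraries without passing.

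On day 6, 5 of the 7 genes were lower in d6_Eff than in d6_Ineff, beside 9.25% of all genes called lower. The part of the EpCAM and Sca1 gate in this difference cannot be told apart. Prrx1 fell 8.76-fold (log2 fold change -3.13 ± 0.26, adjusted p = 5.43e-05, edgeR), Twist1 5.59-fold (-2.48 ± 0.30, adjusted p = 0.000394), Snai1 5.10-fold (-2.35 ± 0.47, adjusted p = 0.00668) and Prrx2 3.83-fold (-1.94 ± 0.35, adjusted p = 0.00396). Snai2 fell by 4.44 ± 0.96 on the log2 scale (adjusted p = 0.0109), a value that rests on 5 counts in d6_Eff. Twist2 (-2.21 ± 1.04, adjusted p = 0.192) and Zeb2 (-2.62 ± 0.87, adjusted p = 0.0697) had no overlap between groups but were not called. Without d6_Eff replicate 2, the d6_Eff library with more reads outside genes, 2 of the 7 were called, Prrx1 and Twist1, and the adjusted p of the others was 0.0622 for Prrx2, 0.0666 for Snai1 and 0.0948 for Snai2. The call of Snai1 was also lost without d6_Eff replicate 1 (0.0676) or d6_Ineff replicate 2 (0.0528), and that of Snai2 without d6_Ineff replicate 1 (0.0628). Zeb2 was called with DESeq2 (adjusted p = 0.0128) and with the replicate number as a block in edgeR (adjusted p = 0.0172). Without d6_Eff replicate 1, which left only the library with 0 counts of Zeb2, its estimate was -9.25. Without MEF replicate 1 or 2 it was -2.61 and -2.62.

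The difference between the days was itself tested, although the gates also differ between the days and cannot be told apart from them. The Eff against Ineff difference on day 6 minus that on day 3 was -2.65 ± 0.40 on the log2 scale for Twist1 and -2.29 ± 0.34 for Prrx1 (SE, adjusted p = 0.0132 each, edgeR), and 1.09% of all genes were called lower in this contrast. Snai1 (-2.04 ± 0.64, adjusted p = 0.179) and Snai2 (-3.36 ± 1.22, adjusted p = 0.262) did not pass, and Prrx2, lower in Eff on both days, had a difference of -0.53 ± 0.47 (adjusted p = 0.757). These 2 calls depend on single libraries. That of Prrx1 was lost without either d3_Ineff library, d3_Eff replicate 1, either d6_Ineff library or d6_Eff replicate 2 (adjusted p = 0.0505 to 0.105), with estimates of -2.56 to -2.002 over all single removals. That of Twist1 was lost without any of the same libraries or d3_Eff replicate 2 (0.0574 to 0.121), with estimates of -2.75 to -2.51.

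**Figure D3:**
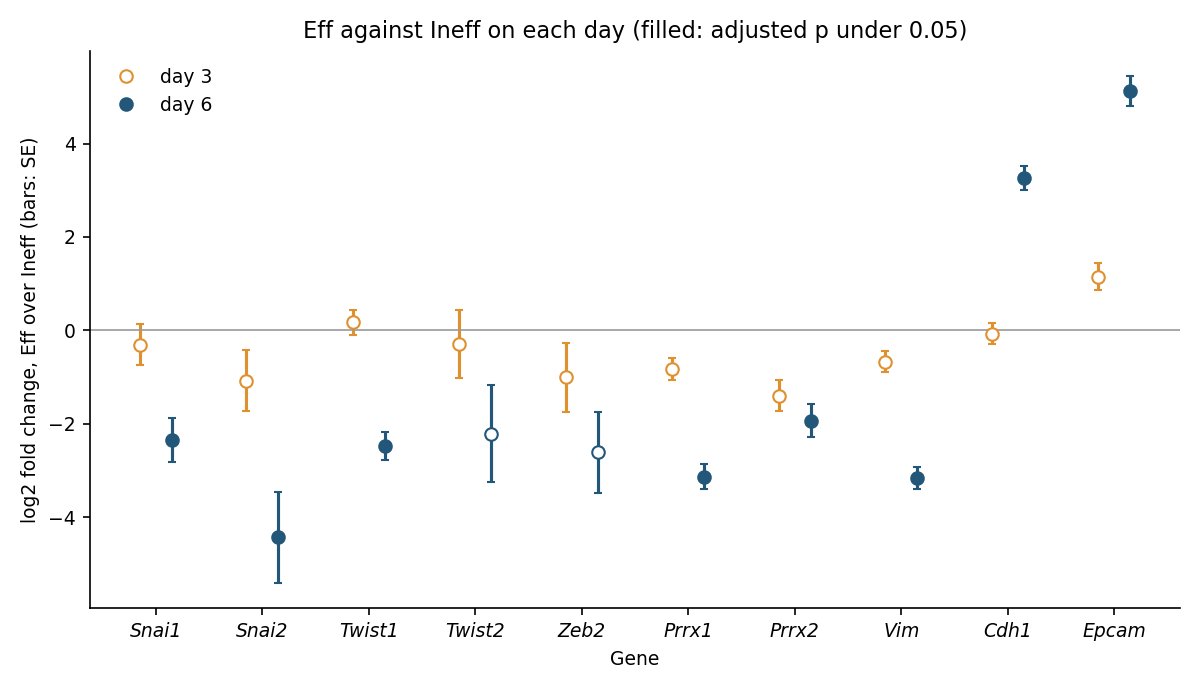
Log2 fold change of Eff over Ineff on day 3 (orange) and day 6 (blue) for 7 genes and for Vim, Cdh1 and Epcam, with bars for the SE and filled points for an adjusted p under 0.05 (edgeR). On day 3 no point is filled, and on day 6 all but Twist2 and Zeb2 are.

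Within the Eff populations, 3 of the 7 genes fell further by day 6 (4.87% of all genes were called lower in d6_Eff against d3_Eff). Prrx1 fell 8.48-fold (log2 fold change -3.08 ± 0.26, adjusted p = 5.58e-05), Twist1 7.94-fold (-2.99 ± 0.30, adjusted p = 0.000161) and Snai2 by 3.79 ± 0.99 on the log2 scale (adjusted p = 0.0355, edgeR). The call of Snai2 was lost without any one of the sorted libraries other than d3_Eff replicate 2 (adjusted p = 0.0565 to 0.276). Snai1 (-1.20 ± 0.47), Prrx2 (-0.99 ± 0.35), Twist2 (-2.99 ± 0.99) and Zeb2 (-2.58 ± 0.87) had adjusted p of 0.0936 to 0.161. DESeq2 called 5, beside 1170 of 15295 genes called lower, and Twist2 and Zeb2 were the additions. With the replicate number as a block Zeb2 was called as well (adjusted p = 0.0337). Without MEF replicate 2 the log2 fold changes of Twist2 and Zeb2 were -2.98 and -2.56. Within the Ineff populations none passed from day 3 to day 6, where 4.42% of all genes were called. At an unadjusted p under 0.05 there was 1, and DESeq2 called 1, Prrx1, at a log2 fold change of -0.79 ± 0.24 (adjusted p = 0.0930 with edgeR, 0.0304 with DESeq2, and 0.00729 and 0.00893 without MEF replicate 1 or 2). Over all genes DESeq2 called 1634 of 14665 in this comparison, and the share at an unadjusted p under 0.05 was not counted. Among the 7 genes Snai1 was the exception in sign, with 6.88 ± 1.04 CPM in d6_Ineff and 3.84 ± 2.11 CPM in d3_Ineff (SD, n = 2 each). Its log2 fold change of 0.84 ± 0.43 did not pass (adjusted p = 0.331, edgeR).

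From d6_Eff to iPSC 1 of the 7 genes was called lower, Prrx1 (log2 fold change -7.39 ± 0.44, adjusted p = 7.99e-07, edgeR), beside 15.9% of all genes. None of the other 6 genes passed this test. Twist1 averaged 2.47 ± 0.146 CPM in iPSC and 2.84 ± 0.200 CPM in d6_Eff, Snai1 0.789 ± 0.464 CPM in iPSC and 1.35 ± 0.0833 CPM in d6_Eff, and Prrx2 3.91 ± 0.905 CPM in iPSC and 2.60 ± 0.856 CPM in d6_Eff (SD, n = 2 each). The test does not show that these levels were equal. At the depth of these libraries 3 counts over a group of 2 stand for 0.0780 CPM in iPSC and 0.0760 CPM in d6_Eff, so Snai2 (0.351 CPM in iPSC and 0.111 CPM in d6_Eff) and Twist2 (0.279 CPM in iPSC and 0.111 CPM in d6_Eff) were close to what counting can resolve.

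**Figure D4:**
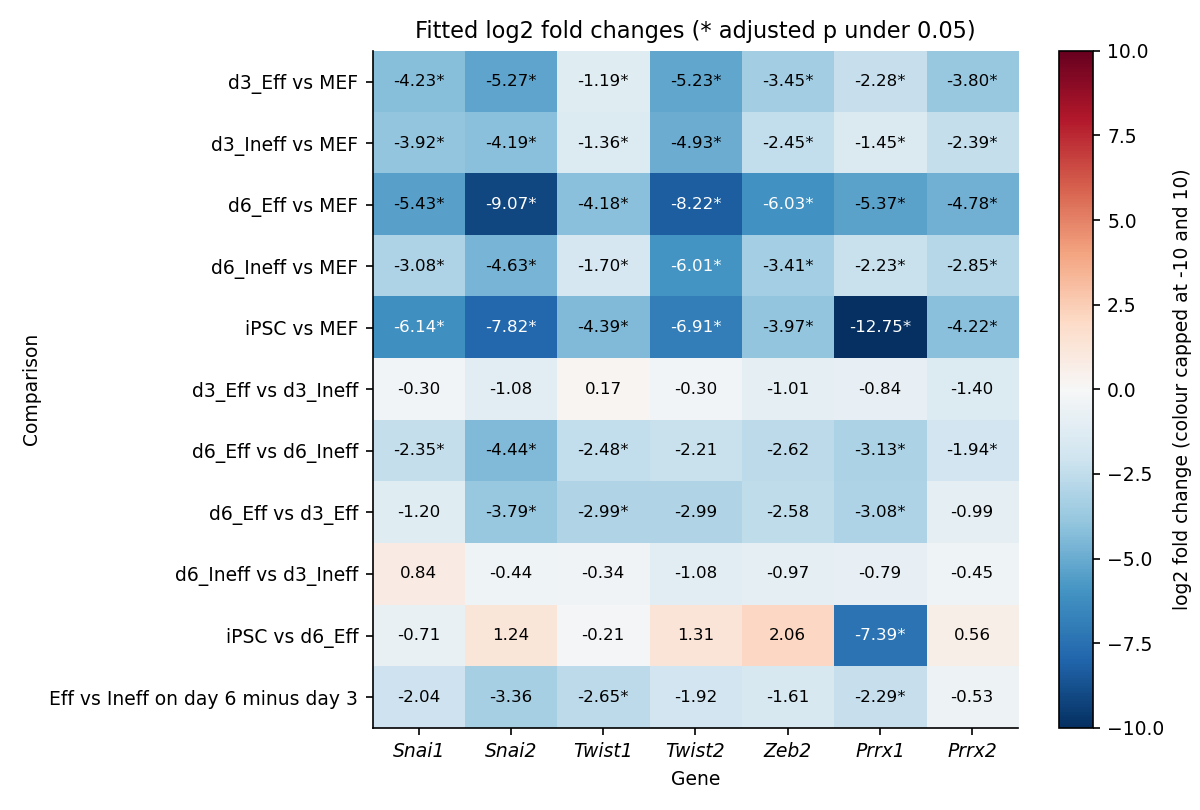
Fitted log2 fold changes of 7 genes (columns) in 11 comparisons (rows), blue for lower and red for higher in the first-named group, with an asterisk for an adjusted p under 0.05 (edgeR). The upper 5 rows are all called, the rows within day 3 and within the Ineff populations have no asterisk, and iPSC vs d6_Eff has 1, for Prrx1.

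Levels of different members were compared per kb of merged exon. Summed over the 8 genes, the level was 215 and 198 CPM per kb in MEF, 30.6 and 31.1 in d3_Eff, 44.6 and 43.2 in d3_Ineff, 6.03 and 4.59 in d6_Eff, 30.3 and 34.2 in d6_Ineff, and 4.16 and 4.64 in iPSC. Prrx1 was the highest member per kb in both libraries of MEF, d3_Ineff and d6_Ineff, Twist1 in both libraries of d3_Eff and d6_Eff, and Prrx2 in both of iPSC. The place of Twist1 depends on the length used: with that of the longest transcript, Prrx1 was the highest in d3_Eff (21.4 and 15.6 CPM per kb, against 12.7 and 15.2 for Twist1) and in d6_Eff (2.59 and 1.76, against 1.83 and 1.66 for Twist1), and the top member of the other groups was unchanged. By merged exons Prrx1 held 22.9 and 28.7% of the sum in MEF. In iPSC Prrx2 held 40.05 and 49.98%.

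The ratio of paralogs within a library does not depend on library scaling. The log2 ratio of Prrx2 over Prrx1 per kb was -0.52 ± 0.11 in MEF, -2.08 ± 0.94 in d3_Eff, -1.48 ± 0.20 in d3_Ineff, 0.03 ± 0.09 in d6_Eff, -1.13 ± 0.21 in d6_Ineff and 8.17 ± 0.81 in iPSC (SD, n = 2 each), where it rests on 1 and 2 counts of Prrx1. That of Twist2 over Twist1 was -1.32 ± 0.46 in MEF, -5.44 ± 0.24 in d3_Eff, -4.96 ± 0.13 in d3_Ineff and -5.81 ± 0.52 in d6_Ineff. Both MEF libraries lay above every other library for this pair. That of Snai2 over Snai1 was -0.03 ± 0.52 in MEF, -1.31 ± 1.51 in d3_Eff, -0.24 ± 0.38 in d3_Ineff and -1.61 ± 0.67 in d6_Ineff. In iPSC it was -2.41 ± 3.69 and rests on 1 and 10 counts of Snai2. The ratios describe levels within a pair, and no test was run on them.

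**Figure D5:**
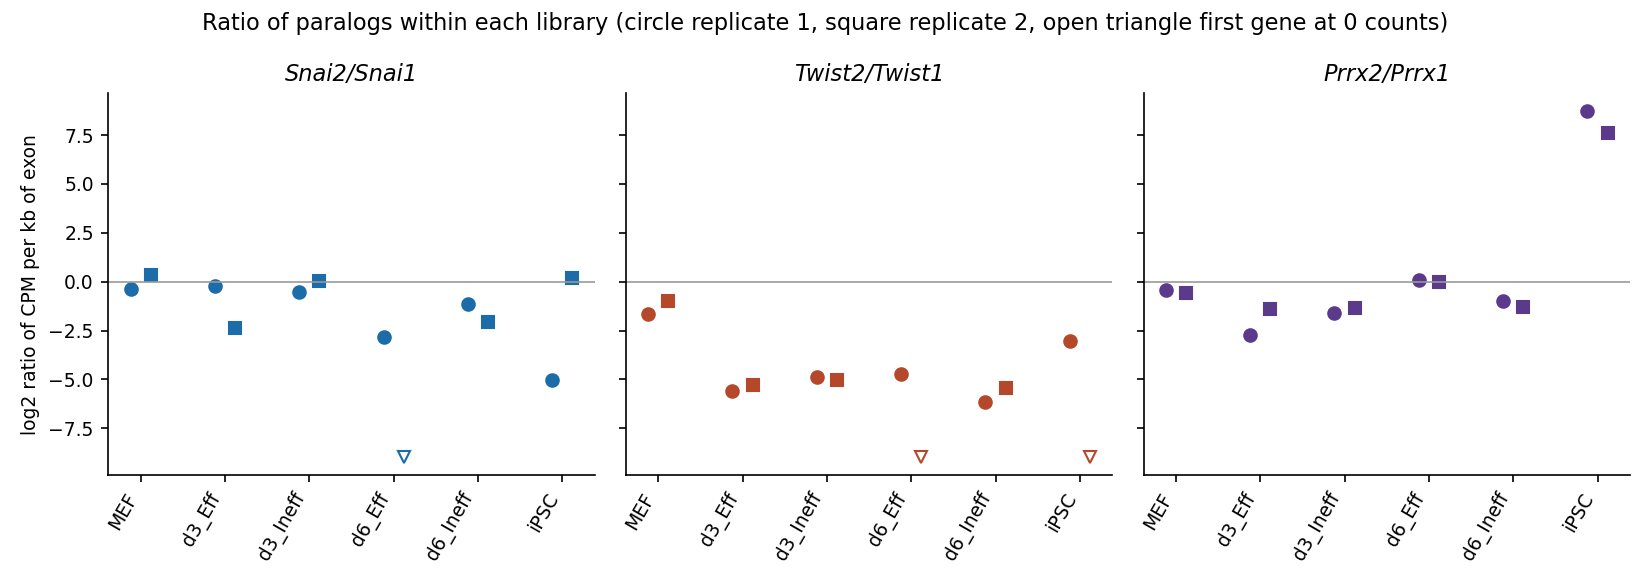
Log2 ratio of CPM per kb of exon within each library for 3 pairs of paralogs, with circles for replicate 1, squares for replicate 2 and open triangles where the first gene had 0 counts. Twist2 over Twist1 lies at -1.65 and -0.995 in MEF and between -6.17 and -4.71 in the sorted libraries with counts, and Prrx2 over Prrx1 lies at 8.74 and 7.60 in iPSC.

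Genes with the most similar course over the 12 libraries were ranked by Pearson r among 11327 genes, as a description. For Prrx1 they were Axl (r = 0.997), a receptor tyrosine kinase, Fbln5 (r = 0.996), an elastic fibre protein, and Vcam1 (r = 0.993), an adhesion molecule, which had 38.3, 19.7 and 4.57 CPM in d6_Eff and 3.01, 0.314 and 0 CPM in iPSC. For Twist1 they were Habp4 (r = 0.988), Gxylt2 (r = 0.984) and Ctsd (r = 0.979). For Snai1 they were Inpp5a (r = 0.983), Slc39a13 (r = 0.978) and Tbc1d8b (r = 0.976), and for Snai2 Esyt2 (r = 0.982), Slc39a1 (r = 0.981) and Plau (r = 0.979). Twist2 was most like Bmper (r = 0.982), Serpina3g (r = 0.981) and Hic1 (r = 0.980), and Prrx2 most like Inhba (r = 0.982), Lgals1 (r = 0.978) and Igfbp7 (r = 0.976). The values for Zeb2 were lower, with Sqle (r = 0.967), Gas1 (r = 0.962) and Kctd9 (r = 0.961). Among the 7 genes themselves the highest value was between Snai2 and Prrx2 (r = 0.959) and the lowest between Zeb2 and Prrx1 (r = 0.601). The libraries share their groups and the low levels outside MEF, so these values describe a common course and no more.

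Epithelial genes that these factors are known to repress went the other way. Cdh1 (E-cadherin) had 0 and 0.140 CPM in MEF, 20.3 and 14.5 CPM in d3_Eff, 18.5 and 18.1 CPM in d3_Ineff, 394 and 431 CPM in d6_Eff, 43.4 and 42.6 CPM in d6_Ineff, and 410 and 426 CPM in iPSC. MEF held 1 count of Cdh1 in all, and the d3_Eff level was 469 times that of MEF (95% interval for counting error 83.9 to 18534). Between the day 3 populations its log2 fold change was -0.07 ± 0.23, and on day 6 it was 3.26 ± 0.25 (adjusted p = 3.89e-05). The difference between the days was 3.33 ± 0.33 (SE, adjusted p = 0.00231, edgeR). Between iPSC and d6_Eff the log2 fold change of Cdh1 was 0.02 ± 0.23 (adjusted p = 0.973).

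Of 40 epithelial genes, 21 rose and 3 fell in d3_Eff against MEF, where 36.5% of all genes were called in either direction, and 21 rose and 1 fell in d3_Ineff (30%). In d6_Eff 35 rose and 1 fell (42.6%), in d6_Ineff 29 rose and 1 fell (30.8%), and in iPSC 34 rose and 1 fell (52.7%). The gene that fell in both Ineff groups and in d6_Eff was Cdh3 (P-cadherin), joined by Krt18 and F11r in d3_Eff, and in iPSC it was Krt19, a keratin. None differed between the day 3 populations. In d6_Eff against d6_Ineff 28 were higher and 1 lower (14.6%), and in the difference between days 10 were higher (1.39%). Both counts of higher genes include Epcam. The day 6 populations were sorted on EpCAM, an epithelial protein, so the part of the gate in these counts cannot be told apart. The median log2 fold change of the list was 2.34 in d6_Eff against d6_Ineff and 0 over all genes. Ap1m2 had 118 and 133 CPM in d6_Eff against 1.04 and 1.24 CPM in d6_Ineff (log2 fold change 6.77 ± 0.49, adjusted p = 3.57e-05, edgeR). Cldn7, a tight junction protein, was 7.91 ± 0.48 higher on the log2 scale (adjusted p = 1.90e-05). Epcam had 947 and 994 CPM in d6_Eff and 27.7 and 27.8 CPM in d6_Ineff, but its protein was the sorting marker, so this difference follows from the sort and is no finding. Tjp1, a junction scaffold that fibroblasts also express, was the 1 gene lower in d6_Eff (-1.33 ± 0.36, adjusted p = 0.0291).

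Mesenchymal genes fell with the factors. Of 34, 30 fell in d3_Eff against MEF (18.6% of all genes were called lower) and 30 in d3_Ineff (15%). On day 6, 33 fell in d6_Eff (21.7%) and 30 in d6_Ineff (15.2%), and in iPSC 33 fell (26.7%). The 1 gene that rose in d6_Ineff and in iPSC was Fbln1, a matrix protein (0.90 ± 0.28 and 1.12 ± 0.28 on the log2 scale, adjusted p = 0.0310 and 0.00622, edgeR). In d6_Eff against d6_Ineff 25 were lower (9.25% of all genes) and none higher, and the median log2 fold change was -2.26, against 0 over all genes. These populations were sorted on EpCAM and Sca1, and the part of the gate in this count cannot be told apart. Vim (vimentin), an intermediate filament of mesenchyme, had 6322 and 6833 CPM in MEF, 4877 and 4586 CPM in d3_Eff, 7706 and 7386 CPM in d3_Ineff, 540 and 376 CPM in d6_Eff, 4222 and 3980 CPM in d6_Ineff, and 108 and 104 CPM in iPSC. Both d6_Eff libraries lay below all day 3 and d6_Ineff libraries. Its log2 fold change in d6_Eff against d6_Ineff was -3.16 ± 0.24 (adjusted p = 3.89e-05, edgeR), and in d3_Eff against MEF it did not pass (-0.48 ± 0.22, adjusted p = 0.120). Axl fell by 2.25 ± 0.17 and Sparc, a matrix glycoprotein, by 2.27 ± 0.23 on the log2 scale between the day 6 populations (adjusted p = 4.28e-05 and 0.000164). The 9 fibroblast genes are all among these 34. Their summed level (88.0 to 166 CPM in d6_Eff, 946 to 1037 CPM in d6_Ineff) is therefore no separate reading. The part of fibroblast content in these results was not tested.

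Of 38 genes of signals that act upstream of the factors, mainly the TGF-beta, BMP, Notch and Wnt pathways, 19 fell and 1 (Bmp7) rose in d6_Eff against MEF, where 21.7% of all genes were called lower and 42.6% in either direction. In iPSC 26 fell and 4 (Smad7, Skil, Bmp7 and Lef1) rose, where 26.7% were called lower and 52.7% in either direction. None differed between the day 3 populations. Between the day 6 populations 14 were lower in d6_Eff (9.25% of all genes) and none higher. Tgfbr2, the type II TGF-beta receptor, had 29.4 and 29.2 CPM in d6_Eff and 150 and 154 CPM in d6_Ineff (log2 fold change -2.37 ± 0.25, adjusted p = 0.000191, edgeR). Tgfb3, a ligand whose exons overlap genes on the opposite strand, fell by 3.79 ± 0.53 on the log2 scale (adjusted p = 0.000962). Smad7, a feedback inhibitor of the pathway, fell by 2.73 ± 0.27 (adjusted p = 0.000155). It was higher in iPSC than in MEF (0.70 ± 0.25, adjusted p = 0.0328).

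Of 28 related and partner factors, 21 were tested, and 5 rose (Snai3, Tcf3, Id1, Id2 and Id4) and 7 fell in d6_Eff against MEF, where 42.6% of all genes were called. In iPSC 2 rose (Snai3 and Msc) and 9 fell, a share near the 52.7% of all genes called. Id1, Id2 and Id4, inhibitors that keep E proteins from pairing with Twist, rose in d6_Eff against MEF by 3.15 ± 0.21, 4.71 ± 0.31 and 3.83 ± 0.23 on the log2 scale (adjusted p = 1.01e-06, 8.17e-07 and 4.75e-07, edgeR). Id3, of the same family, did not rise, with a mean of 142 CPM in d6_Eff and 154 CPM in MEF. Both libraries of d6_Ineff and of each day 3 group also lay above MEF for Id1, Id2 and Id4. Mean levels in d6_Ineff were 343 CPM for Id1, 312 CPM for Id2 and 84.9 CPM for Id4. In d6_Eff they were 186, 338 and 58.4 CPM in the same order. Exons of Id4 overlap genes on the opposite strand. Tcf4, an E protein, fell by 1.90 ± 0.24 (adjusted p = 9.64e-05). Between the day 6 populations Snai3 was higher in d6_Eff, and Tcf4, Id1, Id3, Sox9, Tbx18 and Wwtr1 were lower, beside 14.6% of all genes called in either direction. Snai3, the third Snail family gene, ran against the other Snail genes: it had 0 counts in MEF, 11.2 and 11.2 CPM in d6_Eff, 3.19 and 2.75 CPM in d6_Ineff, and 8.04 and 8.17 CPM in iPSC. In d6_Eff it was 1.91 ± 0.41 higher than in d6_Ineff on the log2 scale (adjusted p = 0.0113).

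Of 20 corepressors and chromatin partners, 8 rose and 1 fell in d6_Eff against MEF, a share near the 42.6% of all genes called. In d6_Eff against d6_Ineff 2 were higher (Ezh2 and Prmt5), 1 was lower and 17 were not called, again near the share over all genes (14.6%). Ezh2, the Polycomb methyltransferase, was 1.31 ± 0.17 higher in d6_Eff (adjusted p = 0.000703), and Loxl2, a lysyl oxidase that binds Snai1, fell by 2.75 ± 0.38 (adjusted p = 0.000932, edgeR). Against MEF Ezh2 was 2.19 ± 0.18 higher and Loxl2 fell by 7.49 ± 0.46 in d6_Eff, and exons of both overlap genes on the opposite strand. Of 15 regulators of the stability of Snail and Twist proteins, 1 was higher (Siah1b, 1.30 ± 0.23, adjusted p = 0.00369) and 1 lower (Lats2, -1.21 ± 0.31, adjusted p = 0.0245) in d6_Eff than in d6_Ineff, also near that share. Protein levels were not measured.

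Markers of other cell types were counted beside these results. All 9 fibroblast genes fell in d6_Eff (21.7% of all genes were called lower) and in iPSC (26.7%) against MEF, and 5 of the 9 were lower in d6_Eff than in d6_Ineff (9.25%). These 9 also belong to the mesenchymal list, so their counts repeat part of that result. The other counts in this paragraph stand beside 14.6% of all genes called in either direction in d6_Eff against d6_Ineff. Of 12 pluripotency genes, 5 were higher (Nanog, Utf1, Dppa5a, Tdgf1 and Lin28a) and 2 lower (Esrrb and Tbx3) in d6_Eff than in d6_Ineff, with summed levels of 537 to 538 CPM in d6_Eff and 306 to 320 CPM in d6_Ineff. The 10 leukocyte markers summed to 205 to 206 CPM in d6_Eff and 481 to 492 CPM in d6_Ineff, with 6 tested and 1, Laptm5, lower in d6_Eff, a share near that of all genes. Laptm5 alone made up 198 and 201 CPM of the sum in d6_Eff and 474 and 484 CPM in d6_Ineff, and the defining genes Ptprc and Adgre1 were at 0 counts in both groups. The 10 endothelial markers summed to 88.1 to 88.9 CPM in d6_Eff and 163 to 166 CPM in d6_Ineff, with 8 tested and 3 (Pecam1, Kdr and Tek) lower in d6_Eff. Tek made up 71.6 and 70.8 CPM of that sum in d6_Eff and 122 and 134 CPM in d6_Ineff, while Cdh5 was at 1.69 and 1.12 CPM in d6_Eff and 5.85 and 6.22 CPM in d6_Ineff. The 10 smooth and skeletal muscle markers summed to 86.7 to 87.8 CPM in d6_Eff and 44.0 to 45.4 CPM in d6_Ineff, and 2 of the 7 tested were higher (Des and Pax7) and 2 lower (Cnn1 and Acta1). The 9 neural and neural crest markers summed to 254 to 309 CPM in d6_Eff and 256 to 280 CPM in d6_Ineff, and 1 of the 6 tested was higher (Tubb3), also near the share of all genes. The part of these cell types in the results was not tested.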

How the data were processed

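Poly-A RNA was sequenced from 12 samples, 2 in each of 6 groups. The authors deposited a table of whole-number read counts per sample, with 1 row for each Ensembl gene. The submitters' processing notes name STAR 2.3.0, Picard 1.100, HTSeq 0.6.0 and the genome build mm9, and the sources used here do not give the annotation. The names of the deposited count tables say that strand was not used, so reads of a gene and an overlapping antisense gene were not told apart by strand. Reads listed as ambiguous, 1.72 to 3.65% of those uniquely placed, were counted for no gene. Summary lines that name no gene (5 per table) stayed out of library sizes and tests. They put 5.10 to 47.15% of uniquely placed reads outside genes.

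GENCODE M21 gave a symbol to 32860 of 37583 identifiers, and its merged exons gave the lengths. The fit used edgeR 4.0.16 (R 4.3.3): filterByExpr left 16240 genes, TMM scaled the libraries, and a robust quasi-likelihood model with 1 mean per group held all 12 libraries (6 residual degrees of freedom, biological coefficient of variation 28.0%). Calls needed an adjusted p under 0.05 (Benjamini-Hochberg, over every gene tested), and the prior count was 0.125. The SE of a log2 fold change was its size over the root of its F statistic. Levels are counts per 1000000 after TMM scaling (CPM). Ratios resting on 1 to 3 counts carry an exact 95% interval, which covers counting error only. Nothing in the labels ties replicates to separate cultures or animals, so the p-values reflect only how far these samples vary, which may be technical.

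The 8 genes and all lists were chosen with earlier results of these data known. All 8 genes were named. So were the 3 genes most like each of the 7 tested ones, by Pearson r of log2(CPM + 0.5) among 11327 genes whose highest group mean reached 5 CPM. List genes were named by the smallest adjusted p in iPSC against MEF, d6_Eff against d6_Ineff and d6_Eff against MEF (up to 3 called genes per direction), and Cdh1 throughout. Crb3, the defining markers Ptprc, Adgre1 and Cdh5, and the members of counts of 6 or fewer were named outside this rule, after their values were seen. Of the list entries, Sox1 had no matching identifier. The code was tested on simulated counts. Alternatives were other size factors, other filters, DESeq2 1.42.0, a replicate block, fits of the compared groups only, exon length of the longest transcript, each library left out and, added after seeing the data, the removal of both libraries with the most reads outside genes. Promoters came from RefSeq on GRCm38.p6, and those on chromosome 18 were not used here.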

Additional observations from a re-analysis of the deposited data

Results flagged for a closer look

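The change of the Eff against Ineff difference between day 3 and day 6 was itself tested (edgeR quasi-likelihood interaction, adjusted over all genes). It passed for 2 of the 7 tested factors, beside 1.39% of all genes called in either direction. The 5 other genes given here were looked up by name and are no count of all genes called. For Twist1 the difference was -2.48 on day 6 and 0.17 on day 3, a change of -2.65 (adjusted p = 0.0132, edgeR). For Prrx1 the difference was -3.13 on day 6 and -0.84 on day 3, a change of -2.29 (adjusted p = 0.0132, edgeR). Both of these calls depended on single libraries, as described above. Among mesenchymal and signal genes, the change was -2.49 for Vim (adjusted p = 0.00663), -1.9 for the receptor Tgfbr2 (adjusted p = 0.0222) and -2.13 for the inhibitor Smad7 (adjusted p = 0.0198). It was 3.33 for Cdh1 (adjusted p = 0.00231) and 3.98 for Epcam (adjusted p = 0.00231), whose protein set the day 6 gate but not the day 3 gate. All values are on the log2 scale. The gates differ between the days, so the day and the gate cannot be told apart in this test.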

How the results depend on the processing

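No called value changed direction under the alternatives that were run. Of the 77 gene tests behind the text (7 genes in 11 comparisons), repeated without each library in turn, 874 kept their side of the threshold, 32 lost the call and 18 gained one. Under the other alternatives 585 kept it, 3 lost the call and 28 gained one. Where 1 library was left in a group, it was taken to vary like the other groups. Of the 7 tested genes, those called in d3_Eff against d3_Ineff were 2 with no filter, with DESeq2, with only the compared groups in the fit, and without both libraries with the most reads outside genes, and 0 to 2 over the single removals. In d6_Ineff against d3_Ineff they were 1 with no filter, with DESeq2 and without both libraries, 2 in the fit of those groups, and 0 to 1 over the removals. In d6_Eff against d3_Eff they were 6 with no filter and 5 with DESeq2 (2 to 5 over the removals). In iPSC against d6_Eff they were 2 with no filter, with DESeq2 and with the replicate block (1 to 2). In the difference between days they were 4 with no filter (0 to 3), and in d6_Eff against d6_Ineff 2 to 6 over the removals. The labels do not say that replicate numbers pair the samples. The r of same-numbered deviations was 0.17 to 0.57 among MEF and the day 3 groups and -0.31 to 0.23 for the remaining pairs of groups. The replicate block added the call of Zeb2 in d6_Eff against d6_Ineff, d6_Eff against d3_Eff and iPSC against d6_Eff (adjusted p = 0.0172, 0.0337 and 0.0304), changed no other call of the 7 genes and left the other counts within 1.5 times. With the longest transcript as length, Twist2 over Twist1 was -5.11 in d3_Eff and -4.63 in d3_Ineff, and Prrx2 over Prrx1 was -0.84 in MEF, -1.80 in d3_Ineff, -0.28 in d6_Eff and -1.44 in d6_Ineff. The causes were not tested.

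Over all genes, the calls in d3_Eff against d3_Ineff were 65 in the reported fit, 459 with no filter, 431 with DESeq2, 829 in the fit of those groups, 675 without both libraries and 2 to 634 over the removals. In d6_Ineff against d3_Ineff they were 717, 1362, 1634, 2931, 2675 and 93 to 2636 in the same order, and in the difference between days 225, 832, 833, 1260, 932 and 10 to 1349. In d6_Eff against d3_Eff there were 1479 in the reported fit, 2291 with DESeq2, 2634 in the fit of those groups and 637 to 2964 over the removals, and in d6_Eff against d6_Ineff 2375, with 5142 in the fit of those groups and 882 to 4774 over the removals. In the fits of the compared groups, calls against MEF were 3325 for d3_Eff (5935 reported), 2092 for d3_Ineff (4876), 3975 for d6_Eff (6914) and 2419 for d6_Ineff (5002), and for iPSC against d6_Eff 7592 (4801). Over the removals they were 2982 to 6880 for d3_Ineff and 3102 to 7330 for d6_Ineff against MEF, and 2864 (without iPSC replicate 1) to 6925 for iPSC against d6_Eff. Upper-quartile scaling put the median of all genes in iPSC against MEF at 0.14 on the log2 scale (0.04 as reported). Values of Snai2, Twist2 and Zeb2 in d6_Eff and iPSC rest on few counts.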
